A study of Saccharomyces cerevisiae with 8 samples.

Results

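The genes described here are 47 rows of a yeast gene count table of 6534 identifiers. They are the single-copy and A-copy genes of the proteins of the large ribosomal subunit, from RPL1A to RPL43A (42 genes), and the 5 genes of the ribosomal stalk, RPP0, RPP1A, RPP1B, RPP2A and RPP2B. They were listed by name and numbering and not by a measured value, but with earlier results of these data known. All 47 passed the filter on low counts and were tested among 5954 genes. They lie on 14 of the nuclear chromosomes, 29 of them have an intron in RefSeq's R64 annotation, and 18 do not.

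The large subunit of the cytosolic ribosome carries the peptidyl transferase centre, the exit tunnel of the growing protein chain and, at its flank, the stalk, a flexible arm of acidic proteins that recruits translation factors. The core of the stalk is P0, the product of RPP0, on which dimers of a P1 protein (RPP1A, RPP1B) and a P2 protein (RPP2A, RPP2B) sit. Many ribosomal protein genes of budding yeast exist as an A and a B copy with nearly the same protein product. Their transcripts are among the most abundant of growing cells, and their promoters are known for the factors Rap1, Fhl1 and Ifh1, which link them to nutrient and stress signals.

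RNA was taken from exponentially growing Saccharomyces cerevisiae kept for 5 hours in a chemically defined medium, in 4 groups of 2 libraries each. These were wild type (strain BMA41) with 0 µg/ml Calcofluor white and wild type with 20 µg/ml. The other groups were the strain labelled BMA41 mub1Δ with 0 µg/ml and the same strain with 20 µg/ml. Calcofluor white (CFW) is a dye that binds chitin and disturbs the cell wall, and Mub1 is a partner of the ubiquitin ligase Ubr2. The study asked where the mub1Δ phenotype comes from, by comparing the expression of genes between these groups. The labels do not say whether the 2 libraries of a group came from separate cultures, so the p-values measure the spread between these libraries, which may be technical.

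The libraries held 24147195 to 31677985 counts in genes. The wild-type libraries had 1068, 1066, 1042 and 1226 counts of MUB1, and the mub1Δ libraries had 1, 0, 0 and 1. The same libraries also differed in 4 genes widely used as selection markers. LEU2, URA3 and MET17 had 0 to 2 counts in every wild-type library and 2621 to 7122 in every mub1Δ library, and TRP1 had 909 to 989 against 0. The loss of MUB1, the difference in these marker genes and any other difference between the strains cannot be told apart here. Below, "mub1" and "genotype" stand for all of these together. The 2 wild-type libraries with CFW differed most from each other, with a chi-square per gene of 77.74 against 11.6 to 30.19 in the other groups. Results that rest on those libraries are given with and without each of them.

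The 5 stalk genes share the 3′ end of their coding sequence, which encodes the tail of the stalk proteins that contacts translation factors. The last 39 coding bases before the stop codon, on the strand of each gene in build R64, are shown because they are the feature that the stalk genes have in common. Capitals mark the 33 bases that are the same in all 5 genes, and lower case the positions that vary among them.
RPP0 (YLR340W), chrXII:806784-806822, plus strand: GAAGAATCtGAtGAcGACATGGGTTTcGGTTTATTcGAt
RPP1A (YDL081C), chrIV:309805-309843, minus strand: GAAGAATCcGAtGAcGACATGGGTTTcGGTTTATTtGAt
RPP1B (YDL130W), chrIV:230486-230524, plus strand: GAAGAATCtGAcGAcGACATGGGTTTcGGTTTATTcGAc
RPP2A (YOL039W), chrXV:254576-254614, plus strand: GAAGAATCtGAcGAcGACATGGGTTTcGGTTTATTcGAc
RPP2B (YDR382W), chrIV:1239783-1239821, plus strand: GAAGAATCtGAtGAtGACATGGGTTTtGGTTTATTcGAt
RPP1B and RPP2A were identical over all 39 bases, although their coding sequences were 67.5% identical as a whole. Coding identity was 69.6% between the P1 genes and 74.3% between the P2 genes.

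Together the 47 genes took 3.99% and 4.28% of the counts of the wild-type libraries without CFW, and 3.18% and 3.29% of those of the mub1 libraries without CFW. Single genes are given as counts-per-million values (CPM), scaled by factors from the trimmed mean of M-values. With CFW the shares were 4.54% and 3.74% in the wild type and 4.12% and 3.91% in mub1. The 2 mub1 libraries without CFW were thus the lowest of the 8, and the 2 wild-type libraries with CFW were the highest and the third lowest.

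**Figure D1:**
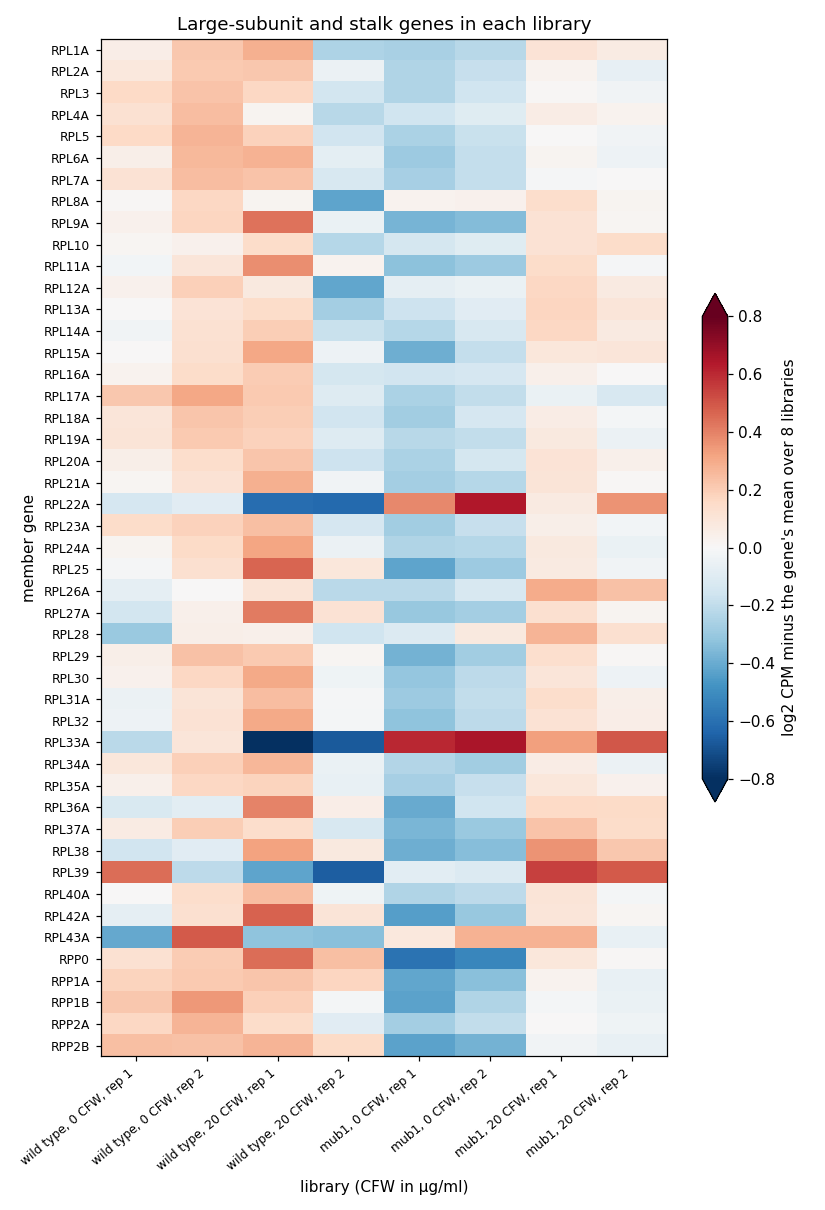
Colour shows log2 CPM of each of the 47 genes (rows) in each of the 8 libraries (columns), minus the gene's own mean over the libraries, with the scale ending at -0.8 and 0.8. Most rows are blue in the 2 mub1 libraries without CFW, and the 2 wild-type libraries with CFW differ from each other, while RPL22A and RPL33A run the other way.

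Levels were compared between genes as CPM per kilobase of coding sequence. The median over the 47 genes was 1551 CPM per kilobase. RPL30 (YGL030W), whose product binds its own transcript and represses its splicing, was highest, with 2827 to 4319 CPM per kilobase over the 8 libraries. RPL3 (YOR063W), a protein that reaches towards the peptidyl transferase centre, followed with 2919 to 4035, and the P2 gene RPP2B with 2396 to 3881. The ranges of these 3 genes overlapped, so their order does not stand out from the spread between libraries. Within the stalk, RPP0 stood at 589 to 1207 CPM per kilobase and ranked below 38 of the other genes.

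The 3 lowest genes were RPL39, which lines the exit tunnel, at 5.34 to 12.3 CPM per kilobase, RPL22A at 6.61 to 15.9 and RPL43A at 8.10 to 15.1, and their ranges overlapped too. Together with RPL33A and RPL28 they were the members under 50 CPM, a limit set after their levels were seen. The highest value of these 5 genes in any library was 38.95 CPM, in RPL28, and the next member, RPL12A, had a mean of 125 CPM. Each of the 5 has beside it in the table a row on the opposite strand that matches no RefSeq gene, as do 4 of the other 42 genes, RPP0 among them. The part of those rows in the low counts was not tested, and the handling of reads over overlapping features is not given in the sources used here, so the values of these 9 genes, and above all of the 5 low ones, are uncertain. RPL39 had 21 to 59 counts in a library and RPL22A 61 to 153, so counting error is larger for them than for the other members.

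**Figure D2:**
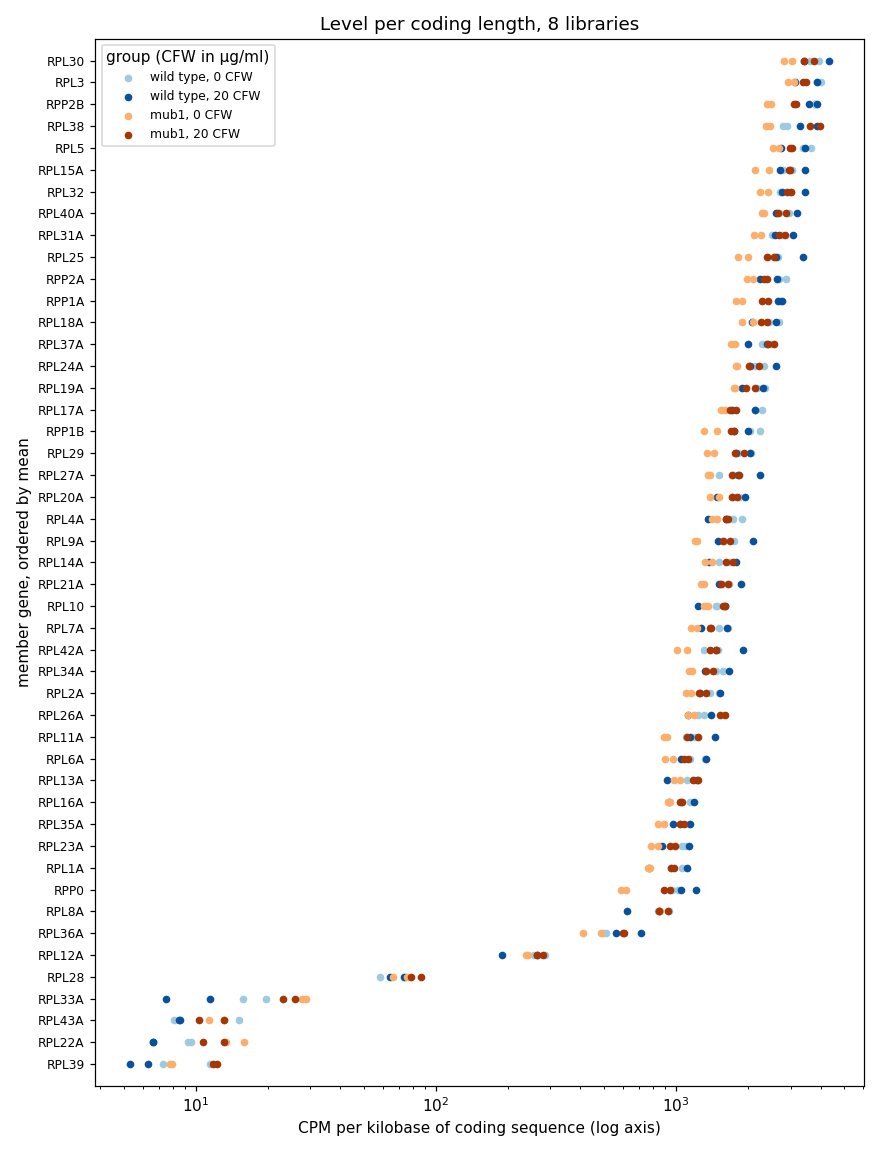
Points give CPM per kilobase of coding sequence on a log axis for each of the 47 genes in each of the 8 libraries, coloured by group and ordered by the mean. The 5 genes at the bottom lie far under the rest, and for most of the others the mub1 libraries without CFW are leftmost.

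Without CFW, the transcripts of large-subunit and stalk proteins were lower in mub1 than in the wild type. Of the 47 genes, 23 fell, 2 rose and 22 did not pass the test (edgeR's quasi-likelihood test, Benjamini-Hochberg adjusted over all tested genes). Of all genes tested, 20.8% fell and 22.1% rose. The median log2 fold change of the 47 genes was -0.35, against -0.01 over all genes tested. In 41 of the 47 both mub1 libraries lay below both wild-type libraries, as they did in 39.7% of all genes tested. In RNA from whole cultures, fewer cells that make a transcript and less of it per cell cannot be told apart, and CPM are shares of the total. All 5 stalk genes fell, with a median log2 of -0.61.

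RPP0, the base of the stalk, had 907 and 957 CPM in the wild type and 553 and 580 in mub1. Its fall of 39.2% (log2 -0.72 ± 0.10 SE, n = 2 libraries per group, adjusted p = 0.000659, edgeR) was the largest decrease among the 47 genes. For the P2 gene RPP2B, 1265 and 1263 CPM in the wild type stood against 798 and 825 in mub1 (log2 -0.64 ± 0.10, adjusted p = 0.000807, edgeR). The other P2 gene, RPP2A, had 861 and 923 CPM against 635 and 669 (log2 -0.45 ± 0.11, adjusted p = 0.00756, edgeR). None of these genes overlapped between the genotypes. Both P1 genes fell too. RPP1A had 862 and 879 CPM in the wild type and 571 and 603 in mub1 (log2 -0.57 ± 0.09, adjusted p = 0.00108, edgeR), and RPP1B had 653 and 716 against 418 and 477 (log2 -0.61 ± 0.11, adjusted p = 0.00182, edgeR). The groups of both genes were apart. RPP0, RPP1A, RPP1B and RPP2B stayed past the threshold in all 16 alternatives tried. RPP2A did not pass without replicate 2 of the wild type without CFW (adjusted p = 0.0732, edgeR, the highest of its alternatives) or without replicate 1 of mub1 without CFW.

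**Figure D3:**
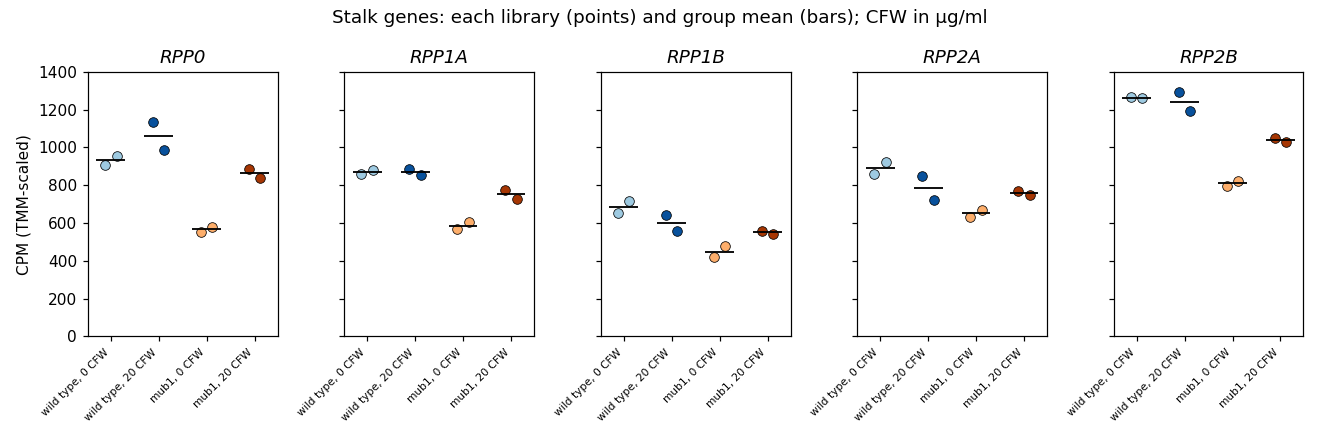
CPM of each of the 5 stalk genes in each library (points) with the mean of each group (bars), for wild type and mub1 with 0 and 20 µg/ml CFW, 2 libraries per group. The lowest points of every panel are the mub1 libraries without CFW, such as 553 and 580 CPM for RPP0.

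Among the core proteins, RPL5 and RPL11A encode proteins that enter the subunit together with the 5S rRNA. RPL5 (YPL131W) had 3032 and 3276 CPM in the wild type and 2274 and 2398 in mub1 (log2 -0.43 ± 0.13, adjusted p = 0.0264, edgeR), and RPL11A (YPR102C) had 577 and 627 against 468 and 479 (log2 -0.35 ± 0.12, adjusted p = 0.0446, edgeR). Both genes were lower in each mub1 library than in either wild-type library. RPL3 had 4487 and 4697 CPM against 3398 and 3598 (log2 -0.39 ± 0.13, adjusted p = 0.0397, edgeR). RPL25 (YOL127W), which binds rRNA early and later sits at the tunnel exit, had 1038 and 1144 against 779.6 and 856 (log2 -0.42 ± 0.13, adjusted p = 0.0319, edgeR). RPL30 fell from 1144 and 1248 CPM to 899 and 965 (log2 -0.36 ± 0.13, adjusted p = 0.0475, edgeR). RPL17A (YKL180W), another protein of the tunnel exit, had the largest decrease outside the stalk, from 1185 and 1269 CPM to 857 and 890.2 (log2 -0.49 ± 0.12, adjusted p = 0.00933, edgeR). In all of these genes the genotypes were apart. The 12 other genes that fell ran from -0.47 (RPL29) to -0.33 (RPL35A), and the 22 that did not pass from -0.38 (RPL1A) to 0.10 (RPL28). RPL3, RPL5, RPL11A, RPL25 and RPL30 lost the call without any 1 of the 4 libraries of this comparison, with adjusted p up to 0.195, 0.167, 0.228, 0.191 and 0.241 (edgeR), and RPL17A lost it without replicate 2 of the wild type or replicate 1 of mub1, both without CFW (up to 0.0814). RPL3, RPL11A and RPL30 also lost it without either mub1 library with CFW, and RPL25 without replicate 2 of those. RPL11A (adjusted p = 0.0505) and RPL30 (0.0533, edgeR) did not pass when the scaling factors were computed without ribosomal protein genes.

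RPL10 (YLR075W), a protein that joins the subunit last and sits near the peptidyl transferase centre, had 976 and 989 CPM in the wild type and 873 and 901 in mub1. The groups did not overlap, but the difference of -0.15 ± 0.12 did not pass (adjusted p = 0.361, edgeR). RPL40A (YIL148W), which is made as a fusion with ubiquitin, had 1039 and 1144 CPM against 879 and 897, with the groups apart and a difference of -0.30 ± 0.12 that did not pass (adjusted p = 0.0684, edgeR). The 2 genes that rose were among the 5 of low level. RPL33A (YPL143W) had 5.11 and 6.33 CPM in the wild type and 8.998 and 9.309 in mub1 (log2 0.68 ± 0.22, adjusted p = 0.0299, edgeR), and RPL22A (YLR061W) had 3.39 and 3.49 against 4.87 and 5.81 (log2 0.64 ± 0.22, adjusted p = 0.0412, edgeR). Both lost the call without any 1 of these 4 libraries, with adjusted p up to 0.173 and 0.197 (edgeR), and RPL22A also without either mub1 library with CFW and under upper-quartile scaling (0.0503). Of the 42 genes of at least 50 CPM, 23 fell, 0 rose, also at an unadjusted p under 0.05, and 41 lay below the wild type without overlap, and RPL8A was the exception.

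Of the members of at least 50 CPM, 14 of 24 with an intron and 9 of 18 without one fell, where 20.8% of all genes tested did. The medians were -0.36 and -0.37, and the difference between the 2 classes was not tested. The count of members past the threshold in this comparison depended on single libraries. How far the count over all genes tested moved with it is not given here. Over the libraries left out, the median log2 of the members ran from -0.40 to -0.29.

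**Figure D4:**
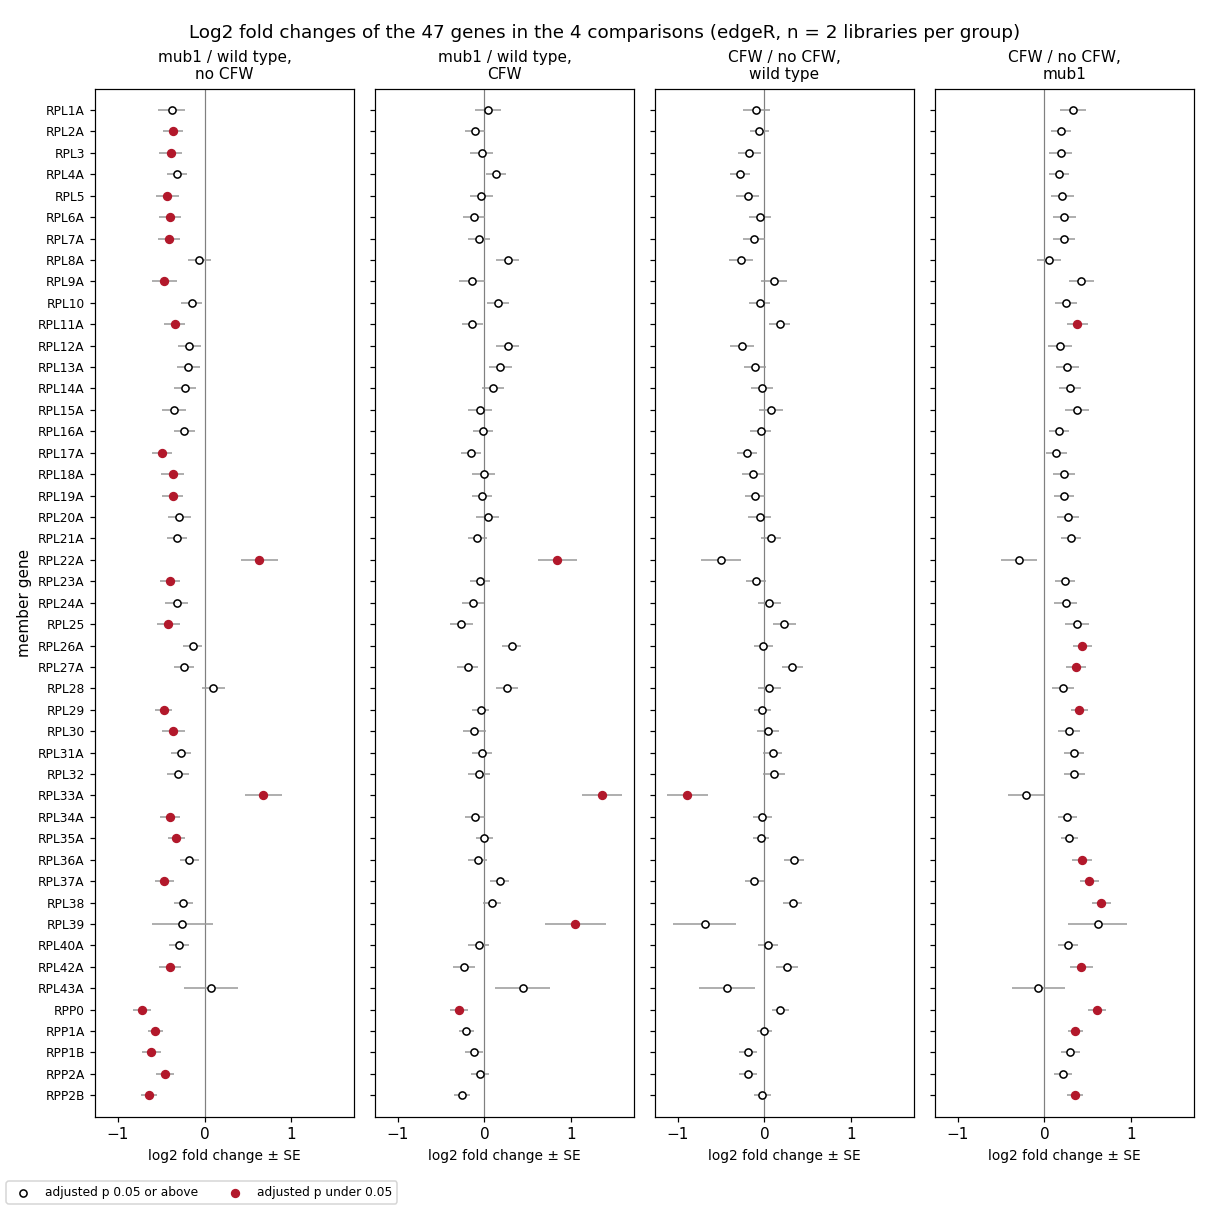
Log2 fold change with its SE for each of the 47 genes in the 4 comparisons of 2 groups, with filled red points where the adjusted p was under 0.05. Red points lie left of 0 for 23 genes in mub1 against wild type without CFW and right of 0 for 11 genes in the comparison of CFW with no CFW in mub1, and the other panels hold 4 and 1.

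With CFW, few of the genes differed between the genotypes. Of the 47, 3 rose, 1 fell and 43 did not pass. Of all genes tested, 18.6% rose and 17.3% fell (35.9% in all). The median log2 was -0.04, against -0.01 over all genes tested. Both mub1 libraries lay above both wild-type libraries in 9 genes and below them in 6, as in 33.0% and 33.2% of all genes tested. RPP0 was the gene that fell. It had 1134 and 985 CPM in the wild type with CFW and 888 and 838 in mub1 with CFW, without overlap (log2 -0.30 ± 0.10, adjusted p = 0.0490, edgeR). It passed in 4 of 16 alternatives, with adjusted p from 0.0026 to 0.23.

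The other stalk genes were at -0.26 ± 0.10 for RPP2B, -0.21 ± 0.09 for RPP1A, -0.12 ± 0.11 for RPP1B and -0.05 ± 0.10 for RPP2A, with adjusted p of 0.0593, 0.0970, 0.399 and 0.750 (edgeR). RPP2A overlapped between the genotypes, and the other stalk genes did not. The 3 genes that rose were of low level. RPL33A had 2.44 and 3.73 CPM in the wild type with CFW and 7.44 and 8.35 in mub1 with CFW (log2 1.36 ± 0.23, adjusted p = 0.00169, edgeR). RPL39 was at 1.05 ± 0.35 (adjusted p = 0.0437, edgeR) and RPL22A at 0.84 ± 0.23 (adjusted p = 0.0175, edgeR). RPL33A passed in all 16 alternatives, RPL22A lost the call with the 4 libraries of the comparison alone and without replicate 2 of mub1 with CFW (adjusted p up to 0.124, edgeR), and RPL39 in 10 of 16. Without the 5 low members, 1 of 42 passed. The result turned with the wild-type libraries. Without replicate 1 of the wild type with CFW the median log2 was 0.11, and without replicate 2 it was -0.19.

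The always-named core genes did not pass in this comparison. Their log2 fold changes were -0.03 ± 0.13 for RPL3, -0.04 ± 0.13 for RPL5, 0.16 ± 0.12 for RPL10, -0.14 ± 0.12 for RPL11A, -0.27 ± 0.13 for RPL25, -0.12 ± 0.13 for RPL30 and -0.07 ± 0.12 for RPL40A, with adjusted p from 0.149 to 0.883 (edgeR). RPL25 had 1444 and 1114 CPM in the wild type with CFW against 1098 and 1027 in mub1. Its groups were apart, and those of RPL3, RPL5, RPL10, RPL11A, RPL30 and RPL40A overlapped.

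In the wild type, CFW left little change that passed the test. Of the 47 genes, 0 rose and 1 fell, against 10.3% and 8.70% of all genes tested (19.0% in all). At an unadjusted p under 0.05, 3 were higher and 2 lower, against 1043 and 993 of the 5954 genes tested. DESeq2 called 5 of the 47, 3 higher and 2 lower, and its share over all genes tested is not given here. The median log2 was -0.04, against -0.01 over all genes tested. RPL33A fell from 5.11 and 6.33 CPM to 2.44 and 3.73 (log2 -0.89 ± 0.23, adjusted p = 0.0288, edgeR), and it lost the call in 6 of 16 alternatives, with adjusted p up to 0.176 without replicate 2 of the wild type without CFW. The 46 other genes ran from -0.69 (RPL39) to 0.34 (RPL36A).

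Both libraries with CFW lay above both without it in 4 members and below them in 7, as in 27.4% and 31.4% of all genes tested. In 36 of the 47 the libraries with and without CFW overlapped. RPL3 had 4487 and 4697 CPM without CFW and 4505 and 3629 with it, and RPL25 had 1038 and 1144 against 1444 and 1114. RPP2A, at 861 and 923 against 847 and 720.3, lay lower with CFW without overlap, and RPP0, at 907 and 957 against 1134 and 985, lay higher without overlap. Neither passed (log2 -0.19 ± 0.10, adjusted p = 0.243, and 0.18 ± 0.10, adjusted p = 0.238, edgeR). RPP1A was at 0.00 ± 0.09, RPP1B at -0.19 ± 0.11 and RPP2B at -0.02 ± 0.10. Without replicate 1 of the wild type with CFW the median log2 was -0.22, and without replicate 2 it was 0.12. The sign of the median thus changed with the library left out.

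In mub1, CFW was followed by higher transcripts of this group. Of the 47 genes, 11 rose and 0 fell. Of all genes tested, 13.8% rose and 14.0% fell (27.7% in all). At an unadjusted p under 0.05, 22 members were higher and 0 lower, against 1256 and 1206 of the 5954 genes tested. DESeq2 called 20 members, all of them higher, and its share over all genes tested is not given here. The median log2 was 0.27, against 0.00 over all genes tested. In 43 of the 47 both libraries with CFW lay above both without it, as in 36.5% of all genes tested. The mub1 libraries without CFW are the reference here and also the mub1 side of the first comparison, so the fall there and the rise here share them.

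RPL38, a small protein of the large subunit, had 560 and 581 CPM without CFW and 943 and 856 with it. Its rise of 57.7% (log2 0.66 ± 0.11, adjusted p = 0.00332, edgeR) was the largest of the 47. RPP0 rose from 553 and 580 CPM to 888 and 838 (log2 0.61 ± 0.10, adjusted p = 0.0037, edgeR). In both genes the groups were apart, and both stayed past the threshold in all 16 alternatives. RPL37A, at 452 and 472 CPM against 682 and 644 (log2 0.52 ± 0.11, adjusted p = 0.00854, edgeR), came next. RPL26A, a protein at the tunnel exit, had 430.0 and 458 against 614 and 588 (log2 0.44 ± 0.11, adjusted p = 0.0184, edgeR), and RPL36A had 124 and 147 against 184 and 183 (log2 0.43 ± 0.11, adjusted p = 0.0222, edgeR). These 3 genes did not overlap between the media either.

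Of the other stalk genes, RPP1A rose from 571 and 603 CPM to 775 and 730.0 (log2 0.36 ± 0.09, adjusted p = 0.0176, edgeR), and RPP2B from 798 and 825 to 1049.8 and 1028 (log2 0.36 ± 0.10, adjusted p = 0.0227, edgeR). RPP1B, at 0.30 ± 0.11 (adjusted p = 0.0637), and RPP2A, at 0.22 ± 0.10 (adjusted p = 0.150, edgeR), did not pass. All 5 stalk genes were above without overlap. RPL11A rose by 0.38 ± 0.12 (adjusted p = 0.0447, edgeR). The remaining core genes did not pass, with 0.19 ± 0.13 for RPL3, 0.20 ± 0.13 for RPL5, 0.25 ± 0.12 for RPL10, 0.38 ± 0.13 for RPL25, 0.29 ± 0.13 for RPL30 and 0.27 ± 0.12 for RPL40A. The other 3 genes that rose were RPL29 (0.40), RPL42A (0.43) and RPL27A (0.37), named to complete the count of 11, and the 36 that did not pass ran from -0.29 (RPL22A) to 0.61 (RPL39). RPL11A, RPL26A, RPP1A and RPP2B lost the call without any 1 of the 4 mub1 libraries, with adjusted p up to 0.236, 0.131, 0.132 and 0.143 (edgeR). RPL36A lost it without replicate 1 of mub1 without CFW (0.166) or either mub1 library with CFW, and RPL37A without replicate 1 of either mub1 group (up to 0.0763).

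Of the 5 low members, 0 of which passed also at an unadjusted p under 0.05 in edgeR, RPL22A and RPL33A were lower with CFW without overlap (log2 -0.29 ± 0.21 and -0.21 ± 0.21). They were the 2 of the 47 genes lower without overlap, against 35.1% of all genes tested. The count of members that rose with CFW was 2 and 4 without replicate 1 or 2 of mub1 without CFW, 2 and 3 without replicate 1 or 2 of mub1 with CFW, 7 without either wild-type library that had no CFW, and 34 and 35 without replicate 1 or 2 of the wild type with CFW. How far the count over all genes tested moved with these libraries is not given here. The swing can thus not be read as a property of these members. The median log2 of the members stayed between 0.24 and 0.32.

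The interaction asks whether the change with CFW differed between the genotypes. The estimate was above 0 in all 47 genes, with a median of 0.33 against 0.00 over all genes tested, and 0 genes passed the edgeR test. Of all genes tested, 0.890% passed above 0 and 1.61% below it (2.50% in all). At an unadjusted p under 0.05, 12 of the 47 were positive and 0 negative, against 693 and 740 of the 5954 genes tested. DESeq2 called 7 of the 47, all of them positive, and its share over all genes tested is not given here. RPL37A had the lowest adjusted p among the 47, with an estimate of 0.64 ± 0.15 (adjusted p = 0.0606, edgeR). It was chosen after its value was seen. RPP0 was at 0.42 ± 0.15, RPP1A at 0.36 ± 0.13, RPP1B at 0.49 ± 0.15, RPP2A at 0.40 ± 0.15 and RPP2B at 0.38 ± 0.13, with adjusted p from 0.103 to 0.141 (edgeR). In DESeq2 the adjusted p of these 5 stalk genes ran from 0.0107 to 0.0488. The estimate rests on the wild-type libraries with CFW. Without replicate 1 of them the median was 0.48, and without replicate 2 it was 0.18. In 5 members both libraries with CFW were lower in the wild type and higher in mub1 without overlap, and 4 were higher in both genotypes. The share of all genes tested with either pattern is not given here, so these counts are descriptions only.

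The proportion of the stalk proteins' transcripts also varied with CFW. The summed level of the P1 and P2 genes over that of RPP0, per kilobase of coding sequence, was 11.6 and 11.4 in the wild type without CFW and 9.34 and 9.75 with it. In mub1 it was 12.7 and 12.8 without CFW and 10.25 and 10.51 with it. All 4 libraries with CFW lay below all 4 without it, and within each medium both mub1 libraries lay above both wild-type libraries. RPP0, the divisor of this ratio, has an unmatched row on the opposite strand beside it, so the size of the ratio is uncertain. The P2 genes stood at 1.32 to 1.42 times the P1 genes over the 8 libraries. RPP2B made up 54.3% and 54.8% of the P2 level in mub1 without CFW and 56.9% to 61.5% in the other libraries. RPP1A made up 55.1% to 60.5% of the P1 level.

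Members also lie close to each other at 3 places in the genome, and whether other genes lie between them is not given here. RPL13A and RPP1A lie tail to tail on chromosome IV, with 413 bases between the coding regions, RPL24A and RPL30 head to head on chromosome VII, 1156 bases apart, and RPL2A and RPL29 on the same strand of chromosome VI, 1839 bases apart. Without CFW RPP1A fell in mub1 while RPL13A did not pass (-0.19 ± 0.13, adjusted p = 0.270, edgeR). RPL30 fell while RPL24A did not pass (-0.32 ± 0.13, adjusted p = 0.0693, edgeR), and both RPL2A (-0.36 ± 0.11) and RPL29 (-0.47 ± 0.10) fell. The difference within each pair was not tested.

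The members whose log2 CPM ran most like that of RPP0 over the 8 libraries were RPP1A (Pearson r = 0.968), RPP2B (r = 0.954) and RPL25 (r = 0.954). These are descriptions over 8 libraries that share their scaling factors. RPP2A (r = 0.794) and RPP1B (r = 0.853) followed RPP0 less closely, and RPL22A (r = -0.855) and RPL33A (r = -0.796) ran opposite to it.

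Promoters were read for 3 motifs on both strands in the 500 bases before each start codon, since ribosomal protein genes are known for Rap1 sites. The letters ACCCNNACA, part of the Rap1 site, were found in 16 of the 47 (34.0%) and in 328 of 6000 promoters of the same length (5.47%). The Abf1 letters (TCA, any 6 bases, ACG) were in 5 members (10.6%) and in 22.7% of all promoters, and the Reb1 letters CCGGGTAA in 1 member, RPL40A, and in 3.55%. The Rap1 letters ended 153 to 401 bases before the start codon, with a median of 265. RPP1B was the stalk gene that held them. The windows of RPP1B and of the 3 genes with such letters among the 5 largest increases with CFW in mub1 follow, read on the gene's strand, with 15 bases on either side and the motif in capitals.
RPP1B, chrIV:229617-229655, plus strand: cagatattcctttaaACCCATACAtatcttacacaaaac
RPL38 (YLR325C), chrXII:781625-781663, minus strand: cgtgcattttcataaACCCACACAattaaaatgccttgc
RPL26A (YLR344W), chrXII:819027-819065, plus strand: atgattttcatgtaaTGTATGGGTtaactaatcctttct
RPL36A (YMR194W), chrXIII:650968-651006, plus strand: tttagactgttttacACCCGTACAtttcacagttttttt
The match in RPL26A is in the opposite orientation to the others. RPP0 and RPL37A, the other 2 of those 5, did not hold these letters in this window. A match is a description of the sequence and not of a bound factor.

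For 32 of the RPL members the table also holds a B copy, and the share of the A copy in the counts of both was compared between libraries. In 29 of these pairs the A copy reached 50 CPM. Among those 29, the A copy took over 50% in every library in 16 and under 50% in 10, and the median share was 59.0%. In the pairs of RPL22A, RPL33A and RPL43A, whose A copies were of low level, its share was 0.467% to 6.91%. Over all 32 pairs, coding identity within a pair was 79.2% to 99.4%. In 6 pairs, those of RPL1A, RPL2A, RPL4A, RPL7A, RPL11A and RPL35A, the copies share a run of at least 150 bases, the read length. Reads may thus be divided between copies in a way that is not given in the sources used here. Among the 29 pairs, the largest range belonged to RPL9A and RPL9B. There the A copy took 76.0% and 75.6% in the wild type without CFW and 76.4% and 73.8% with it, against 62.5% and 62.2% in mub1 without CFW and 66.9% and 66.6% with it. The genotypes were apart. RPL9B, the partner, rose in mub1 in either medium (log2 0.46 ± 0.11 in both, adjusted p = 0.00813 without and 0.00902 with CFW, edgeR), whereas RPL9A fell without CFW (log2 -0.46 ± 0.15, adjusted p = 0.0309, edgeR).

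RPL8A and RPL8B came next. The A share was 46.6% to 51.5% in the wild type and 51.5% to 56.8% in mub1, and the highest wild-type and the lowest mub1 value were both 51.53%. The share of RPL6A against RPL6B ran from 56.9% to 66.4%. It was lower in each library with CFW than in any without it, at 56.9% to 61.8% against 63.7% to 66.4%. The smallest ranges were those of RPL14A (76.0% to 77.0%), RPL15A (96.4% to 97.8%) and RPL36A (96.2% to 97.7%), whose shares overlapped between genotypes and media. Among the 29 pairs, the A share was higher in every mub1 library than in any wild-type library in 5 and lower in 7, and it was lower in every library with CFW in 4 and higher in 0.

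**Figure D5:**
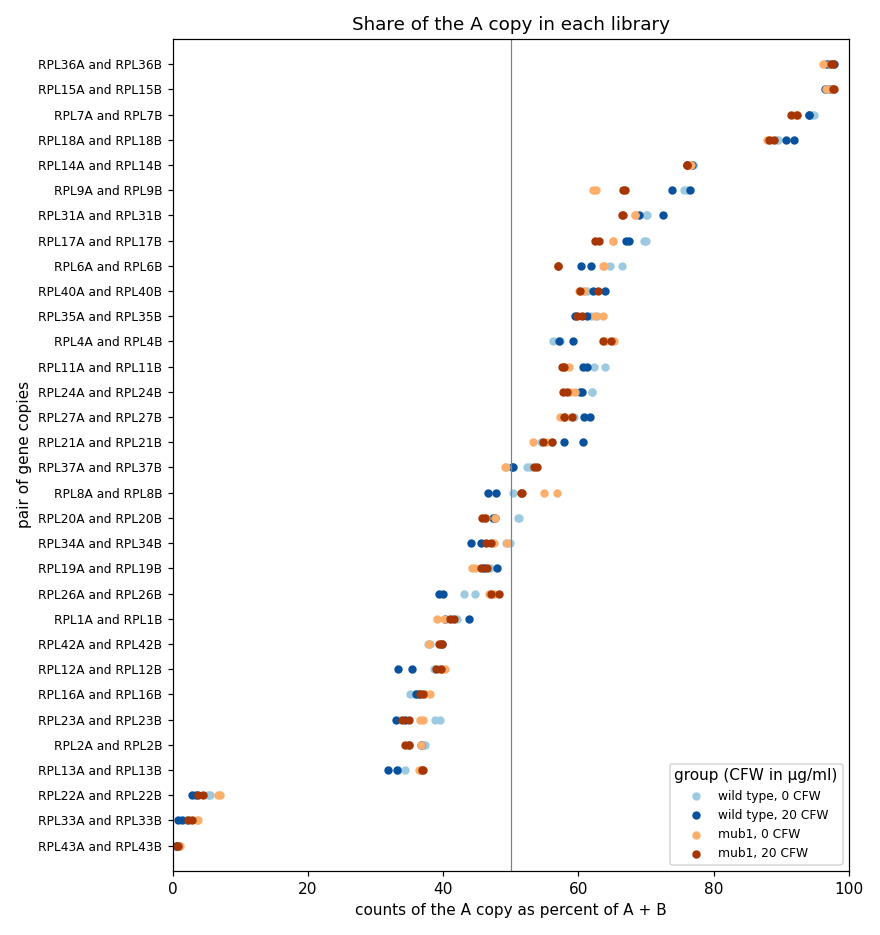
Counts of the A copy as a percent of the counts of A and B for 32 pairs of gene copies, 1 point per library, coloured by group, with a line at 50%. The widest row is RPL9A and RPL9B, from 62.2% to 76.4%, and the 3 lowest rows hold A copies of low level.

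Of the 32 B copies themselves, 7 fell and 1 rose in mub1 without CFW (median log2 -0.25), against 20.8% and 22.1% of all genes tested. The share of B copies that fell was thus near that of all genes tested. In either direction they were called less often than the 42.9% of all genes tested. Among those that fell, RPL4B was at -0.79 ± 0.13 (adjusted p = 0.00138, edgeR) and RPL15B at -0.48 ± 0.08 (adjusted p = 0.00164, edgeR). With CFW in mub1, 10 of 32 rose and 0 fell (median 0.29), against 13.8% and 14.0% of all genes tested, RPL22B (0.49 ± 0.12), RPL6B (0.64 ± 0.15) and RPL35B (0.46 ± 0.12) among them. RPL4B and RPL35B share runs of 422 and 302 bases with their A copies, so their values may depend on how reads were divided. Of 57 genes of the small subunit, 23 fell and 2 rose in mub1 without CFW (median -0.30), against 20.8% and 22.1% of all genes tested. The share called in either direction, 43.9%, was near the 42.9% of all genes tested, but most of these calls were decreases. With CFW in mub1, 18 of these 57 rose and 0 fell (median 0.30), against 13.8% and 14.0% of all genes tested. In either direction 31.6% were called, against 27.7% of all genes tested. The differences of these lists from the 47 genes were not tested.

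A list of 8 chaperones was read, most of them proteins that accompany single large-subunit proteins until assembly. NAP1, which is not specific to the large subunit, was also on the list. In mub1 without CFW 5 fell and 0 rose (median -0.37), where 20.8% and 22.1% of all genes tested did. ACL4, the chaperone of Rpl4, was at -0.58 ± 0.11 (adjusted p = 0.0031, edgeR), RRB1, that of Rpl3, at -0.66 ± 0.14 (adjusted p = 0.00412, edgeR) and SQT1, that of Rpl10, at -0.47 ± 0.10 (adjusted p = 0.00553, edgeR). With CFW in mub1, 2 of the 8 rose and 0 fell, against 13.8% and 14.0% of all genes tested. The share called in either direction was near the 27.7% of all genes tested. SQT1 rose by 0.85 ± 0.10 (adjusted p = 0.00109, edgeR) and ACL4 by 0.40 ± 0.11 (adjusted p = 0.0273, edgeR). SQT1 also rose with CFW in the wild type (0.70 ± 0.10, adjusted p = 0.00247, edgeR). ACL4 was the 1 gene of these lists that passed the interaction test (0.77 ± 0.16, adjusted p = 0.0424, edgeR).

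Of 12 tested factors of stalk assembly and late maturation of the large subunit, 3 fell and 2 rose in mub1 without CFW, and these 41.7% called are near the 42.9% of all genes tested. LSG1, a GTPase that acts late in the cytoplasm, was at -1.25 ± 0.15 (adjusted p = 0.000324, edgeR), YVH1, which helps to replace Mrt4 by P0, at -0.58 ± 0.14 (adjusted p = 0.00887, edgeR), and REI1 at 0.64 ± 0.14 (adjusted p = 0.00618, edgeR). With CFW in mub1, 7 of the 12 rose and 0 fell, against 13.8% and 14.0% of all genes tested. MRT4, the placeholder of P0 on the assembling subunit, rose by 0.70 ± 0.15 (adjusted p = 0.00985, edgeR) and SDO1 by 0.49 ± 0.08 (adjusted p = 0.00362, edgeR). Of 8 tested elongation factors, 4 fell in mub1 without CFW and 0 rose, against 20.8% and 22.1% of all genes tested, with EFB1 at -0.58 ± 0.13 (adjusted p = 0.00715, edgeR) among them. With CFW in mub1 1 of them rose, YEF3 at 0.56 ± 0.16 (adjusted p = 0.0267, edgeR), so that 12.5% were called, against 27.7% of all genes tested.

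The share of called genes among 17 regulators of ribosomal protein genes was near that of all genes tested, at 41.2% against 42.9% in mub1 without CFW and 29.4% against 27.7% with CFW in mub1. Without CFW 4 fell and 3 rose in mub1, with the activator IFH1 at 0.58 ± 0.14 (adjusted p = 0.0102, edgeR) and the repressor DOT6 at -0.42 ± 0.09 (adjusted p = 0.00568, edgeR). With CFW in mub1, 2 rose and 3 fell, with CRF1, a corepressor, at 0.63 ± 0.13 (adjusted p = 0.00837, edgeR) and HMO1 at -0.34 ± 0.07 (adjusted p = 0.00714, edgeR). In the wild type IFH1 rose with CFW by 0.85 ± 0.14 (adjusted p = 0.00444, edgeR) and CRF1 by 0.72 ± 0.13 (adjusted p = 0.0069, edgeR). Of the other ubiquitin genes beside RPL40A, UBI4, the polyubiquitin gene, rose in mub1 without CFW by 0.80 ± 0.11 (adjusted p = 0.000467, edgeR), RPS31 fell by 0.40 ± 0.13 (adjusted p = 0.0366, edgeR) and RPL40B, the B copy of RPL40A, did not pass (-0.26 ± 0.13, adjusted p = 0.127, edgeR).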

How the data were processed

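Per the submitters' processing notes, FastQC 0.12.1, HISAT2 2.2.1 and featureCounts 2.0.3 were used with genome build R64. Per the labels' protocols, the libraries were stranded and enriched for polyadenylated RNA. The deposited values are whole-number counts per gene and library that the authors did not normalise. The strand setting of the counting and the treatment of reads with several alignments or over overlapping genes are not given in the sources used here.

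Of 6534 identifiers, 5864 matched RefSeq's annotation of R64, which gave symbols, coordinates, coding lengths and sequences. Counts were fitted in edgeR 4.0.16 (R 4.3.3) with TMM scaling (0.9793 to 1.024), filterByExpr (5954 genes kept), 1 mean per group over all 8 libraries (4 residual degrees of freedom), robust quasi-likelihood tests and Benjamini-Hochberg adjustment over all tested genes, with a threshold of 0.05. The SE is the absolute log2 fold change over the square root of F. A count of 0 allows up to 3 counts, 0.0947 to 0.124 CPM. The main fit has no replicate block.

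The members and the lists were chosen with earlier results of these data known, so lists carry counts and medians and no test of their own. Of 14 written factors of stalk assembly and late maturation, 12 were found by symbol. Genes were named by a rule: the 5 stalk genes, RPL40A, RPL3, RPL5, RPL10, RPL11A, RPL25 and RPL30 always, the 5 largest called changes in each direction of a comparison, the 3 highest and 3 lowest levels, the 3 pairs with the largest and smallest range of the A share, the 3 genes most like RPP0, and up to 3 examples per list by p. Names outside it complete a count or are said to be chosen after their values were seen.

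Tested on simulated data with log2 changes of 0.5 and 1, the fit recovered 62% and 94% (mub1 against wild type without CFW, 5934 genes), 66% and 99% (with CFW, 5935 genes), 68% and 97% (CFW in the wild type, 5933 genes), 71% and 97% (CFW in mub1, 5930 genes) and 24% and 92% (interaction, 5930 genes). Alternatives were DESeq2 1.42.0, other scalings, no filter, the libraries of a comparison alone, a replicate block, each library left out and, chosen after seeing the data, leaving out the members under 50 CPM.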

Additional observations from a re-analysis of the deposited data

How the results depend on the processing

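Values stand in this order: genotype without CFW, genotype with CFW, dye in the wild type, dye in mub1, interaction. Leaving out 1 library at a time moved the count of members past the threshold, from 25, 4, 1, 11 and 0, to 4 to 40, 1 to 17, 0 to 16, 2 to 35 and 0 to 39, and the median log2 to -0.40 to -0.29, -0.19 to 0.11, -0.22 to 0.12, 0.24 to 0.32 and 0.18 to 0.48. With the 4 libraries of a comparison alone the counts were 40, 1, 0 and 37. DESeq2 called 5 in the third comparison, 20 in the fourth and 7 in the interaction, and scaling by library totals 3 in the third and 19 in the fourth. Without the 5 members under 50 CPM the counts were 1 in the second and 0 in the third. Counts over all genes tested under these settings are not given here, and the cause of these shifts was not tested.

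Replicate numbers were not taken to pair the libraries: deviations of same-numbered libraries correlated at 0.106 to 0.277 in 3 pairs of groups and at -0.229 to -0.138 in the 3 pairs that hold the wild type with CFW. With a replicate block 20, 2, 1, 8 and 0 members passed, and 7 of 26 calls of named members did not: RPL3, RPL11A, RPL22A and RPL30 for the genotype without CFW (adjusted p = 0.0603, 0.057, 0.0516 and 0.0675, edgeR), RPL39 and RPP0 for the genotype with CFW (0.0521 and 0.0758) and RPL11A for the dye in mub1 (0.061).

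Of 1124 alternatives to 71 values of named members, 942 kept direction and side of the threshold, 104 lost the call, 59 gained it and 19 changed sign, 0 of those with an adjusted p under 0.05 (edgeR). For the dye in the wild type, RPP2B was at 0.018 under scaling by library totals. The other 18 changes of sign came from leaving out a library, and the results that held them ran over the libraries left out as follows. For the genotype with CFW, RPL3 ran from -0.18 to 0.12, RPL5 from -0.19 to 0.13, RPL10 from -0.017 to 0.35, RPL11A from -0.30 to 0.031, RPL30 from -0.27 to 0.051, RPL40A from -0.20 to 0.068 and RPP2A from -0.16 to 0.062. For the dye in the wild type, RPL10 ran from -0.25 to 0.12, RPL11A from -0.0022 to 0.34, RPL30 from -0.13 to 0.20, RPL40A from -0.10 to 0.18, RPP1A from -0.018 to 0.026 and RPP2B from -0.077 to 0.033. For the interaction RPL25 ran from -0.027 to 0.34. The median level per kilobase was 1551 CPM with coding or annotated exon length.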
